A study of Thermothelomyces thermophilus with 18 samples.

Results

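In the thermophilic fungus Myceliophthora thermophila, 71 genes were lower on cellulose and higher on starch in a strain without the transcription factor gene Mttrc-1. They were chosen from 9109 genes by their read counts in the same libraries that are described here. Counts were scaled by the median-of-ratios method, and a constant of 1 was added to each group mean. A gene was taken when its highest group mean was at least 100, when the mean of the deletion strain was under 0.5 times that of the wild type on Avicel at 4 h and at 6 h, and when it was over 2 times that of the wild type on starch. The rule found 74 genes, and 3 of them were left out as the rule asks (Mycth_80312, Mycth_107763 and Mycth_108044). All 71 genes passed the filter on low counts, as did 8573 genes of the whole table.

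The strains were ΔMttrc-1, a G418-resistant transformant in which CRISPR-Cas9 replaced the gene by a neo marker, and the wild type MtWT. Mycelium of both strains was grown at 45 °C for 16 h with 2% glucose. After a wash it went into 2% Avicel (microcrystalline cellulose), where it was sampled at 4 h and at 6 h, or into 2% starch. The 6 groups had 3 libraries each, called independent biological replicates in the study's methods, and starch was sampled at 4 h only. Strain names follow the labels, because the deleted gene is not analysed here and could not check them. In bulk mycelium, a change in every hypha and a change in the share of hyphae that express a gene cannot be told apart.

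Saprotrophic fungi sense which polymer is at hand and express the enzymes, transporters and metabolic genes that the polymer calls for. Cellulose is insoluble, and its soluble breakdown products induce cellulase genes through zinc cluster transcription factors, while glucose and other easily used sugars repress them through the repressor CRE-1. Starch is an easily used glucose polymer that calls for amylases and maltose transporters in place of cellulases.

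Library totals lay between 17250057 and 24387079 counts, and the 10 most abundant genes held between 5.69% and 10.2% of them. Replicates of a group differed by more than sampling noise in every pair, with chi-square values per degree of freedom from 2.16 to 40.9. The MtWT library of replicate 3 on Avicel at 4 h stood most apart from its group. Without it, the same rule gave 64 genes, of which 62 were among the 71. The actin gene Mycth_2314852 differed between ΔMttrc-1 and MtWT by -0.24, -0.16 and -0.28 on the log2 scale on Avicel at 4 h, on Avicel at 6 h and on starch.

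Few of the genes have a known identity. A description in the study's annotation was at hand for 14 of the 71 genes, and 3 of these read hypothetical protein. The remaining 11 comprised several redox enzymes, with a lactate dehydrogenase, a zinc-binding alcohol dehydrogenase, an NAD(P)-binding protein, a pyridine nucleotide-disulphide oxidoreductase, a laccase-like protein and a cytochrome P450. The others were a transporter of the major facilitator superfamily, a trypsin-like peptidase, a chitin-binding protein, a calycin-like protein and a member of the superfamily of regulators of G protein signalling. Of the 25 cellulase, secretion, starch and control genes that the study followed by name, 0 were among the 71. The cellulase-related gene Mycth_80312, left out by the rule, was the only gene of those lists that met its thresholds. Promoter and protein sequences were not analysed here.

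As a share of all counts, the 71 genes together held 0.141% in ΔMttrc-1 and 0.44% in MtWT on Avicel at 4 h. At 6 h on Avicel they held 0.0996% in ΔMttrc-1 and 0.439% in MtWT. On starch they held 0.706% in ΔMttrc-1 and 0.159% in MtWT. The largest share was thus that of the deletion strain on starch, and the smallest that of the deletion strain on Avicel at 6 h.

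Levels are given below as CPM, the usual measure of counts relative to library size, after TMM scaling. The highest group mean of a gene had a median of 36.0 CPM over the 71 genes and a range from 4.95 to 636 CPM. It reached 100 CPM in 23 genes and stayed under 10 CPM in 15. The group with the highest mean was ΔMttrc-1 on starch for 32 genes, MtWT on Avicel at 4 h for 21 genes and MtWT on Avicel at 6 h for 18 genes. The lowest mean was that of ΔMttrc-1 on Avicel at 6 h for 40 genes, of ΔMttrc-1 on Avicel at 4 h for 19 and of MtWT on starch for 12. In 25 of the 71 genes, all 3 libraries of ΔMttrc-1 on starch lay above the 15 others, as they did in 6.64% of all genes tested. The rule favours a high level in this group, so nothing is read from this count.

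**Figure D1:**
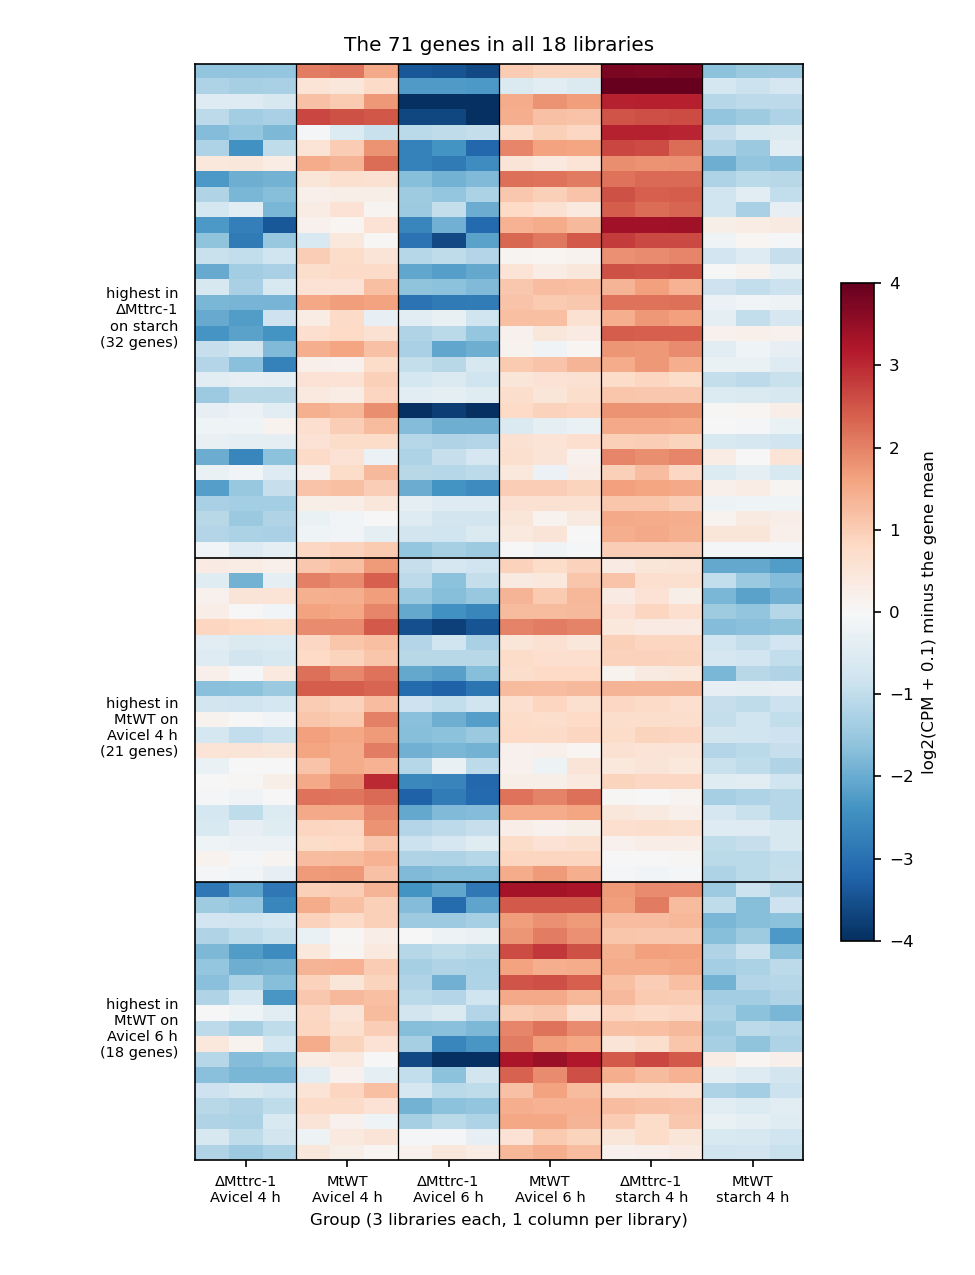
Heat map of the 71 genes (rows, ordered by the group with the highest mean and then by the starch difference) in 18 libraries (columns, 3 per group). Colour is log2(CPM + 0.1) minus the gene's mean over all libraries. Red blocks stand in ΔMttrc-1 on starch and in MtWT on Avicel, with 32, 21 and 18 genes highest in ΔMttrc-1 on starch, MtWT on Avicel at 4 h and MtWT on Avicel at 6 h.

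The differences between ΔMttrc-1 and MtWT within a condition chose the genes, so they are given as a description with no test. In the edgeR quasi-likelihood fit across all 8573 genes, a call needed an adjusted p under 0.05 together with an absolute log2 fold change over 1. On Avicel at 4 h, 71 of 71 genes were called lower in ΔMttrc-1, against 7.42% of all genes tested, with a median log2 fold change of -1.78. At 6 h, 69 were called lower, against 12.9% of all genes, with a median of -2.55. The 2 exceptions, Mycth_2306772 at -1.0 and Mycth_101172 at -0.98, lay at the threshold of the rule. On starch, 70 were called higher, against 4.12% of all genes, with a median of 2.04, and the exception Mycth_2130517 stood at 1.0. Because the rule used these contrasts, nothing is read from these shares.

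The 3 libraries of ΔMttrc-1 did not overlap with the 3 of MtWT for any of the 71 genes in any of the 3 conditions, which the rule favours. The same full separation held for 32.4% of all genes tested (lower in ΔMttrc-1, Avicel at 4 h), 39.3% (lower, Avicel at 6 h) and 33.1% (higher, starch). Without MtWT replicate 3 on Avicel at 4 h, 63 of the 71 genes were called lower at that time. The 8 others then lay between -0.98 and -0.78 on the log2 scale. With library totals as the scale in place of TMM, 59 genes were called lower at 6 h, and lower calls made up 31.3% of all calls in that comparison in place of 60.2%.

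Among the genes with the highest levels was Mycth_2307990, for which no description was at hand. It had 613, 596 and 615 CPM in ΔMttrc-1 on starch, against 19.6, 17.7 and 20.2 CPM in MtWT on starch. On Avicel at 4 h it had 13.5, 12.7 and 13.0 CPM in ΔMttrc-1, against 46.9, 43.8 and 53.9 CPM in MtWT. The deletion strain thus stood far above all other groups on starch and below MtWT on Avicel, where the level at 6 h was 6.56 ± 0.104 CPM in ΔMttrc-1 and 21.9 ± 1.04 CPM in MtWT (SD, n = 3 each). The log2 differences were 4.98 on starch, -1.88 on Avicel at 4 h and -1.74 at 6 h. Per gene length, its mean of 400.9 RPKM in ΔMttrc-1 on starch placed it at rank 331 of 9109 genes in that group.

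Mycth_73236, also without a description, had the largest starch difference of all 71 genes. Its levels on starch were 428, 423 and 426 CPM in ΔMttrc-1, against 10.1, 11.3 and 11.4 CPM in MtWT, a log2 difference of 5.28. On Avicel at 4 h it had 10.5, 10.6 and 10.8 CPM in ΔMttrc-1, against 131, 139 and 90.4 CPM in MtWT. At 6 h the levels were 2.92, 2.79 and 2.50 CPM in ΔMttrc-1, against 63.9, 58.0 and 58.2 CPM in MtWT. In MtWT the gene was thus a cellulose gene, 10.9 times higher on Avicel at 4 h than on starch, and in ΔMttrc-1 it was a starch gene. Its carbon difference at 4 h (Avicel against starch, log2) was -5.33 in ΔMttrc-1 and 3.45 in MtWT.

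Mycth_2296904 followed the same course at a high level. On starch it had 364, 369 and 373 CPM in ΔMttrc-1, against 19.4, 20.6 and 20.9 CPM in MtWT. On Avicel at 6 h it had 2.06, 1.73 and 1.95 CPM in ΔMttrc-1, against 120, 149 and 137 CPM in MtWT. The transcript was thus highest in ΔMttrc-1 on starch and lowest in ΔMttrc-1 on Avicel at 6 h. Per gene length it was the most abundant of the 71 genes in ΔMttrc-1 on starch, with a mean of 744 RPKM (rank 175 of 9109 genes), and in MtWT on starch it had 41.3 RPKM.

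Mycth_112714 encodes a class-II pyridine nucleotide-disulphide oxidoreductase, a flavoenzyme of the family that includes thioredoxin reductases. At 4 h it showed a nearly even mirror pattern. On starch its levels were 52.4, 54.5 and 55.4 CPM in ΔMttrc-1, against 2.95, 3.33 and 3.79 CPM in MtWT. Its levels on Avicel at 4 h were 4.30, 3.38 and 3.61 CPM in ΔMttrc-1, against 57.8, 53.1 and 50.8 CPM in MtWT. The deletion strain on starch and MtWT on Avicel thus overlapped, as did the low groups, and the log2 differences at 4 h were 4.00 on starch and -3.83 on Avicel. At 6 h on Avicel it had 0.637, 0.636 and 0.469 CPM in ΔMttrc-1, against 25, 20.4 and 20.1 CPM in MtWT.

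Mycth_112362, of the superfamily of regulators of G protein signalling, is the one described gene with a signalling role, since such proteins shorten the active state of G proteins. At 4 h on Avicel it had 26.7, 26.2 and 26.2 CPM in ΔMttrc-1, against 277, 298 and 291 CPM in MtWT. On starch it had 426, 422 and 437 CPM in ΔMttrc-1, against 79.5, 86.9 and 81.1 CPM in MtWT. The replicates were close and the strains far apart in both media, with log2 differences of -3.45 and 2.38.

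Mycth_110317, an L-lactate dehydrogenase, which converts between lactate and pyruvate, was among the genes with the most counts. On Avicel at 4 h it had 282, 277 and 262 CPM in ΔMttrc-1, against 572, 542 and 795 CPM in MtWT. On starch it had 293, 281 and 275 CPM in ΔMttrc-1, against 84.8, 90.2 and 102 CPM in MtWT. The deletion strain thus held the gene at a similar level on both media at 4 h, with a log2 difference of -0.05 between Avicel and starch, where MtWT had 2.78. At 6 h on Avicel it was lower in both strains, with 52.04 ± 1.66 CPM in ΔMttrc-1 and 214 ± 9.52 CPM in MtWT (SD, n = 3 each).

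Other described genes spanned a wide range of levels. Mycth_103070, a protein with a chitin-binding domain, had 108, 105 and 107 CPM in ΔMttrc-1 on starch, against 7.63, 10 and 9.32 CPM in MtWT on starch. At 4 h on Avicel it had 39.9, 40.6 and 36.6 CPM in ΔMttrc-1, against 83.8, 76.8 and 140 CPM in MtWT, the last from the library that stood apart. The haem monooxygenase of the cytochrome P450 family, Mycth_112051, had 2.15, 3.51 and 5.42 CPM in ΔMttrc-1 on Avicel at 4 h, against 22.9, 23.9 and 20.3 CPM in MtWT, and differed by 1.37 on the log2 scale on starch. Mycth_2063133, a laccase-like multicopper oxidase, stayed under 10 CPM in every library, with log2 differences of -1.13 and -1.79 on Avicel at 4 h and 6 h and 2.46 on starch. The major facilitator Mycth_109499, of a family that carries small solutes across membranes, had 8.14, 7.96 and 7.93 CPM in ΔMttrc-1 on starch, against 1.07, 1.33 and 0.673 CPM in MtWT on starch.

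Some of the genes furthest below MtWT on Avicel were weakly expressed, and there counting error matters. The trypsin-like peptidase Mycth_2106471 had 3 counts in the 3 ΔMttrc-1 libraries at 6 h on Avicel, against 150 counts in MtWT. Scaled for depth, MtWT was 76.1 times higher, with a 95% counting interval from 25.5 to 373. The hypothetical protein Mycth_114667 had 1 count in ΔMttrc-1 and 77 in MtWT on Avicel at 4 h, a ratio of MtWT to ΔMttrc-1 of 70.7 with an interval from 12.3 to 2828. At 6 h it had 3 counts in ΔMttrc-1 and 375 in MtWT, a ratio of 190 with an interval from 64.6 to 927. On starch the same gene had 2.24, 2.56 and 2.58 CPM in ΔMttrc-1, against 0.164, 0.299 and 0.213 CPM in MtWT. It was thus nearly absent from the deletion strain on Avicel and present in it on starch. These intervals cover counting error only. A strong Avicel difference at a readily measured level was that of Mycth_2306025, with 9.10, 9.33 and 10.6 CPM in ΔMttrc-1 at 4 h, against 160, 158 and 150 CPM in MtWT.

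**Figure D2:**
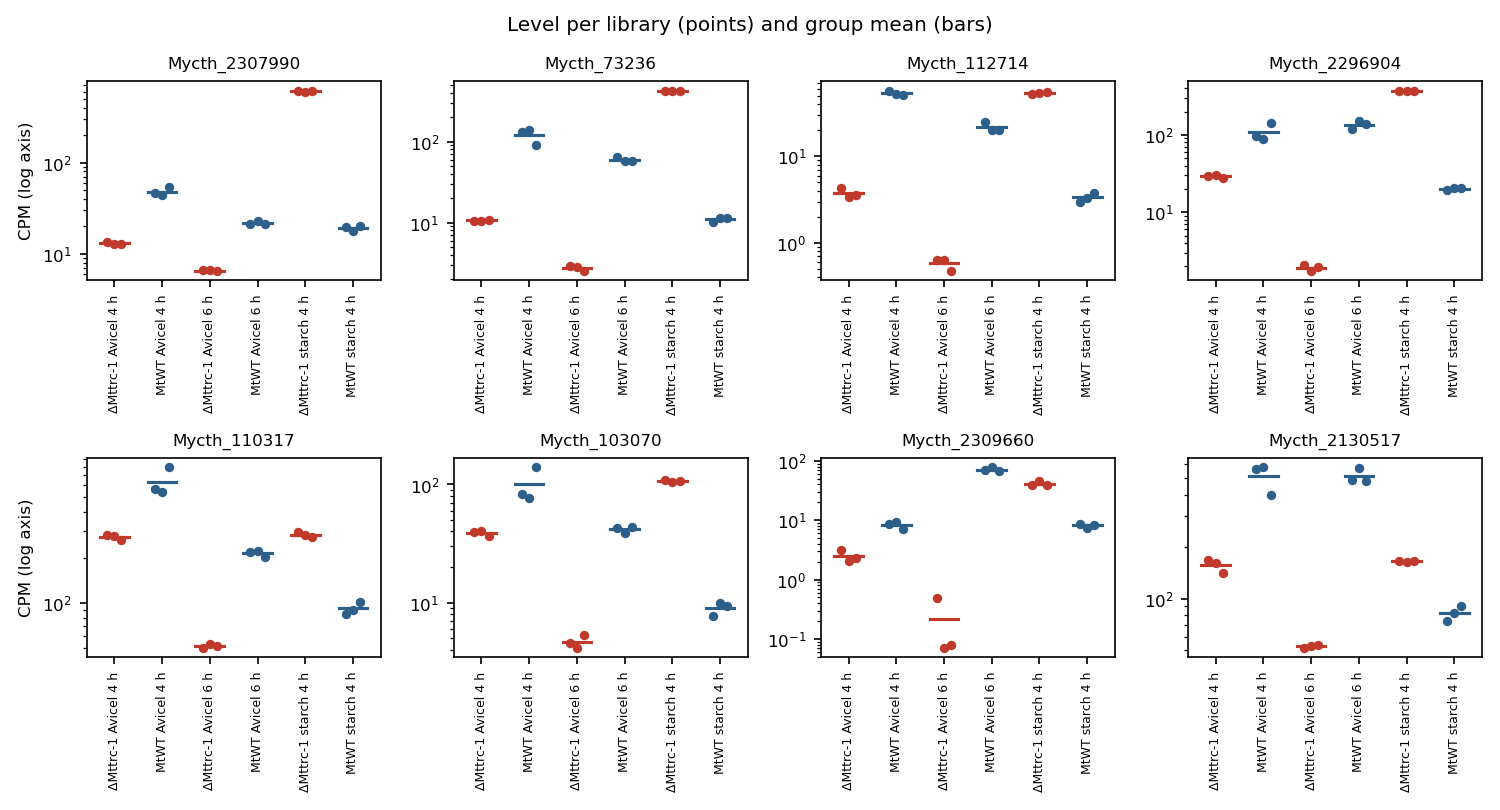
Levels of 8 of the genes in CPM on a log axis, 3 libraries per group (points, ΔMttrc-1 in red and MtWT in blue) with the group mean (bar). Mycth_2307990 stands between 596 and 615 CPM in ΔMttrc-1 on starch and at or under 53.9 CPM in all other libraries, while the high groups of Mycth_112714 at 4 h overlap.

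The rule sets no condition on which medium goes with the higher level in a strain. In MtWT, 55 of the 71 genes were called higher on Avicel at 4 h than on starch, against 9.95% of all genes tested, with a median log2 fold change of 1.81. At 6 h, 55 were called higher again, against 13.0% of all genes, with a median of 1.83, and 46 genes were called at both times. In ΔMttrc-1, 57 of the 71 were called lower on Avicel at 4 h than on starch, against 8.42% of all genes, with a median of -2.31. At 6 h, 68 were called lower, against 6.88% of all genes, with a median of -2.68. As the rule leans both contrasts in these directions, the counts describe the genes and were not tested further. No share of all genes was at hand for the 46 genes called at both times.

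Taken per gene, 41 of the 71 were called higher on Avicel than on starch in MtWT and lower on Avicel than on starch in ΔMttrc-1 at 4 h, and 52 at 6 h. Both times were met by 32 genes. Among all 8573 genes tested, 94 met the condition at 4 h and 192 at 6 h, and no count was at hand for both times together. The rule leans these counts too, so nothing is read from them. In 7 of the 71 genes MtWT was called higher on Avicel at neither time, also a count without a share of all genes. An example is Mycth_2306396, with 12.3, 12.7 and 10.6 CPM in MtWT on Avicel at 4 h, against 19.5, 19.5 and 15.8 CPM on starch, where the medium difference in MtWT was -0.62 on the log2 scale. At 4 h this gene was thus starch-leaning in both strains, with a difference of -2.73 in ΔMttrc-1, although the MtWT value was too small for a call. For Avicel at 6 h against starch, the difference was -0.07 in MtWT (edgeR adjusted p = 0.556) and -2.18 in ΔMttrc-1. With library totals as the scale, 43 genes were called higher on Avicel at 4 h in MtWT and 51 at 6 h, while 62 were called lower on Avicel at 4 h in ΔMttrc-1. Lower calls then made up 84.8%, 66.7% and 83.4% of all calls in these comparisons, in place of 49.6%, 44.8% and 49.6%.

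Comparisons that cross strain and medium show how close the deletion strain on one medium came to the wild type on the other. The rule sets no condition on these, although it was applied to the same libraries, so the tests are not independent of the choice. At 4 h, ΔMttrc-1 on starch was called higher than MtWT on Avicel for 22 of 71 genes, against 9.49% of all genes tested, and lower for 12, against 8.39%. The median log2 fold change was 0.36 over the 71 genes and 0.04 over all genes. ΔMttrc-1 on Avicel was called higher than MtWT on starch for 11 genes, against 8.91% of all genes, and lower for 17, against 8.84%. The median was -0.07 over the 71 genes and -0.08 over all genes. Neither comparison was called for 29 genes, while 12 were called higher in the first and lower in the second, and 7 lower in the first and higher in the second. No share of all genes was at hand for these joint counts, so nothing is read from them. With library totals as the scale, the calls of the first comparison were 31 higher and 4 lower, and those of the second 7 higher and 27 lower. Over all genes, lower calls then made up 14.5% and 84.6% of calls in the 2 comparisons, in place of 46.9% and 49.8%.

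At 4 h, Mycth_112714 had similar levels in the strains once the media were exchanged. Its log2 fold change was 0.00 ± 0.09 (SE; edgeR adjusted p = 0.964) between ΔMttrc-1 on starch and MtWT on Avicel, and 0.17 ± 0.15 (edgeR adjusted p = 0.329) between ΔMttrc-1 on Avicel and MtWT on starch. The 6 h levels on Avicel were further away. They averaged 0.581 CPM in ΔMttrc-1, against 3.36 CPM in MtWT on starch, and 21.8 CPM in MtWT, against 54.1 CPM in ΔMttrc-1 on starch. Mycth_2307990 went past the wild-type range, with ΔMttrc-1 on starch above MtWT on Avicel by 3.66 ± 0.06 on the log2 scale (SE; edgeR adjusted p = 2.38e-25). Mycth_90354 did likewise, with 160, 161 and 157 CPM in ΔMttrc-1 on starch, against 17.8, 12.9 and 10.2 CPM in MtWT on Avicel at 4 h (log2 fold change 3.55 ± 0.12, edgeR adjusted p = 3.45e-17). On the other side stood Mycth_2310226, with 26.3, 25 and 27 CPM in ΔMttrc-1 on starch, against 115, 112 and 122 CPM in MtWT on Avicel (-2.15 ± 0.08, edgeR adjusted p = 1.24e-18). The NAD(P)-binding protein Mycth_106343 was higher in ΔMttrc-1 on Avicel than in MtWT on starch by 2.48 ± 0.12 (SE; edgeR adjusted p = 3.15e-12). Its 103, 99.6 and 94.9 CPM in ΔMttrc-1 on Avicel at 4 h stood against 17.1, 17.7 and 18.7 CPM in MtWT on starch. Strain and medium both differ here, so the difference cannot be assigned to either. Within ΔMttrc-1 the gene averaged 99.3 CPM on Avicel at 4 h, 73.4 CPM on starch and 4.72 CPM on Avicel at 6 h.

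**Figure D3:**
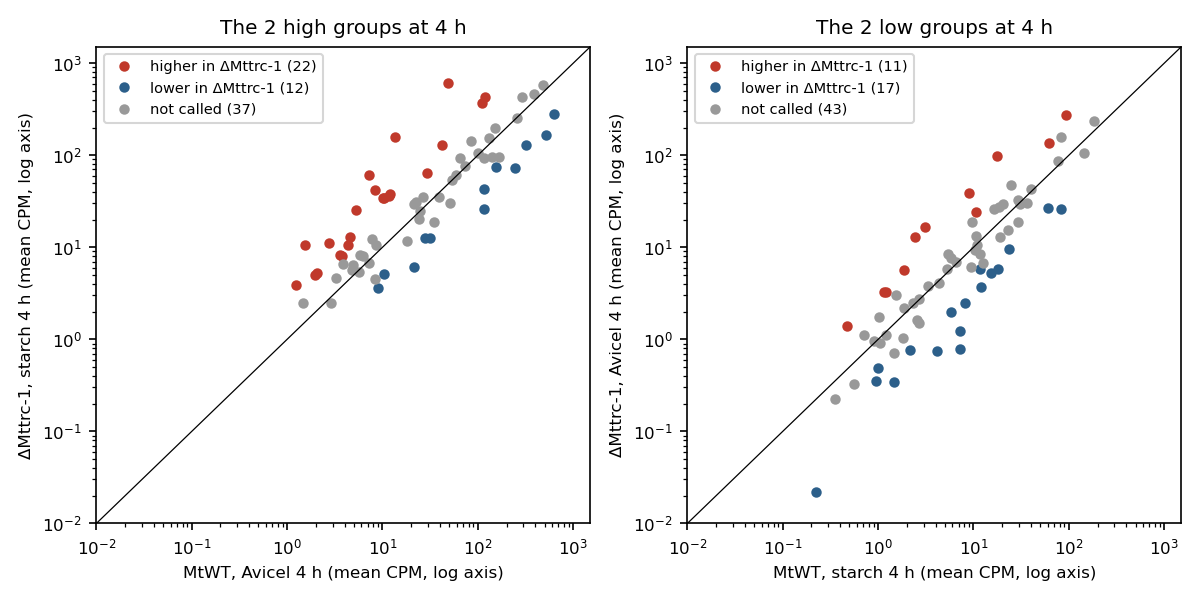
Mean CPM of the 71 genes at 4 h on log axes, ΔMttrc-1 on starch against MtWT on Avicel (left) and ΔMttrc-1 on Avicel against MtWT on starch (right), with the line of equal levels. Points in red and blue were called higher (22 and 11 genes) and lower (12 and 17 genes) in ΔMttrc-1, and grey points were not called.

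On Avicel, lower calls with time were more frequent in ΔMttrc-1 than in MtWT, both among the 71 genes and among all genes tested. The strain difference in these calls is thus not read as a trait of the 71 genes. The rule sets no condition on change with time within a strain, although it was applied to the same libraries, so these tests are not independent of the choice. From 4 h to 6 h, 5 of the 71 genes were called higher at 6 h and 24 lower in ΔMttrc-1, against 9.44% and 9.55% of all genes tested. In MtWT, 14 were called higher and 13 lower, against 8.4% and 5.67%. The median log2 change was -0.63 in ΔMttrc-1 and -0.08 in MtWT, where the medians over all genes were 0.04 and 0.01. The difference between the deletion effect at 6 h and at 4 h is built from the ΔMttrc-1 to MtWT ratios that the rule used, so it is given as a description with no test. In the fit over all genes it was called lower for 24 of the 71 genes and higher for 2, against 11.9% and 10.6% of all genes, with a median of -0.72.

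Scaling by library totals moved the median of all genes in ΔMttrc-1 to 0.64. It gave 15 genes higher and 16 lower at 6 h in ΔMttrc-1, and 19 higher and 8 lower in MtWT. For the difference of deletion effects it gave 4 higher and 19 lower. Over all genes, lower calls made up 12.9% in ΔMttrc-1, 15.4% in MtWT and 29.3% for the difference with library totals, in place of 50.3%, 40.3% and 52.9%. The calls higher at 6 h in ΔMttrc-1 were 3 without ΔMttrc-1 replicate 2 on Avicel at 4 h. The 2 genes with a higher difference became 1 without that library or without MtWT replicate 1 on Avicel at 4 h, and 3 with another library left out.

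Of the 24 genes whose deletion effect was lower at 6 h, 10 were called lower with time in ΔMttrc-1 and were not called in MtWT. A further 7 were called higher with time in MtWT and were not called in ΔMttrc-1. The same split among all genes with a lower effect at 6 h was not at hand, so nothing is read from these counts. They serve only to sort the genes described below. Mycth_106343, the NAD(P)-binding protein, belongs to the first kind. In ΔMttrc-1 it had 4.87, 4.20 and 5.08 CPM at 6 h, against 103, 99.6 and 94.9 CPM at 4 h. In MtWT it had 226, 237 and 224 CPM at 6 h, against 210, 209 and 310 CPM at 4 h. The transcript thus fell in ΔMttrc-1 (log2 fold change -4.40 ± 0.15, edgeR adjusted p = 6.41e-15) while the change in MtWT was -0.09 ± 0.11 (edgeR adjusted p = 0.474), a difference of -4.31 ± 0.18 (SE).

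Mycth_2296904 was of the same kind, with a fall of -3.93 ± 0.21 in ΔMttrc-1 (log2 fold change ± SE, edgeR adjusted p = 5.11e-11), a change of 0.31 ± 0.13 in MtWT and a difference of -4.24 ± 0.25. Mycth_60267 had 8.02, 9.68 and 7.46 CPM at 6 h in ΔMttrc-1, against 105, 114 and 99.2 CPM at 4 h. Its difference of effects was -2.96 ± 0.17 (SE), and in MtWT it had 230, 249 and 241 CPM at 6 h, against 356, 333 and 480 CPM at 4 h. Per gene length Mycth_60267 was the second most abundant of the 71 genes in ΔMttrc-1 on starch, with a mean of 524 RPKM.

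Mycth_2309660 was the 1 gene called in opposite directions over time in the 2 strains. In ΔMttrc-1 it had 0.487, 0.0707 and 0.0781 CPM at 6 h, against 3.14, 2.05 and 2.27 CPM at 4 h. In MtWT it had 68.9, 78.7 and 66.7 CPM at 6 h, against 8.68, 9.41 and 7.15 CPM at 4 h. The log2 changes were -3.54 ± 0.38 in ΔMttrc-1 (SE; edgeR adjusted p = 1.42e-08) and 3.09 ± 0.14 in MtWT (edgeR adjusted p = 4.15e-15), with a difference of -6.63 ± 0.39. Its log2 difference between the strains at 6 h, -8.36, was the most negative Avicel value of the 71 genes. The 3 ΔMttrc-1 libraries at 6 h held only 17 counts of the gene, so counting error matters for this value and for the difference of -6.63. In MtWT at 4 h the gene stood at the same level on both media (log2 difference 0.04 between Avicel and starch), so its higher Avicel level in the wild type was seen at 6 h and not at 4 h.

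Of the second kind was Mycth_2306150. It had 7.93, 7.01 and 8.95 CPM at 6 h in MtWT, against 0.965, 2.10 and 1.59 CPM at 4 h, and it stayed under 0.5 CPM in every ΔMttrc-1 library on Avicel. The difference of effects was -3.69 ± 0.69 (SE). Mycth_86350 and Mycth_2299843 were also called higher with time in MtWT, by 2.58 ± 0.24 and 2.38 ± 0.15 on the log2 scale (SE; edgeR adjusted p = 8.92e-10 and 4.54e-13). In ΔMttrc-1 Mycth_2299843 was called higher as well, by 1.14 ± 0.28 (edgeR adjusted p = 0.000708), while for Mycth_86350 the value was 0.81 ± 0.43 (edgeR adjusted p = 0.0941).

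The opposite course, a smaller deletion effect at 6 h, was called for Mycth_2142698 and Mycth_2307619. Mycth_2142698 had 2.74, 2.97 and 2.11 CPM at 6 h in ΔMttrc-1, against 1.16, 1.39 and 1.14 CPM at 4 h, and its difference of effects was 1.46 ± 0.22 (SE). For Mycth_2307619 the difference was 1.16 ± 0.40. Both remained lower in ΔMttrc-1 than in MtWT at 6 h, as the rule demands.

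**Figure D4:**
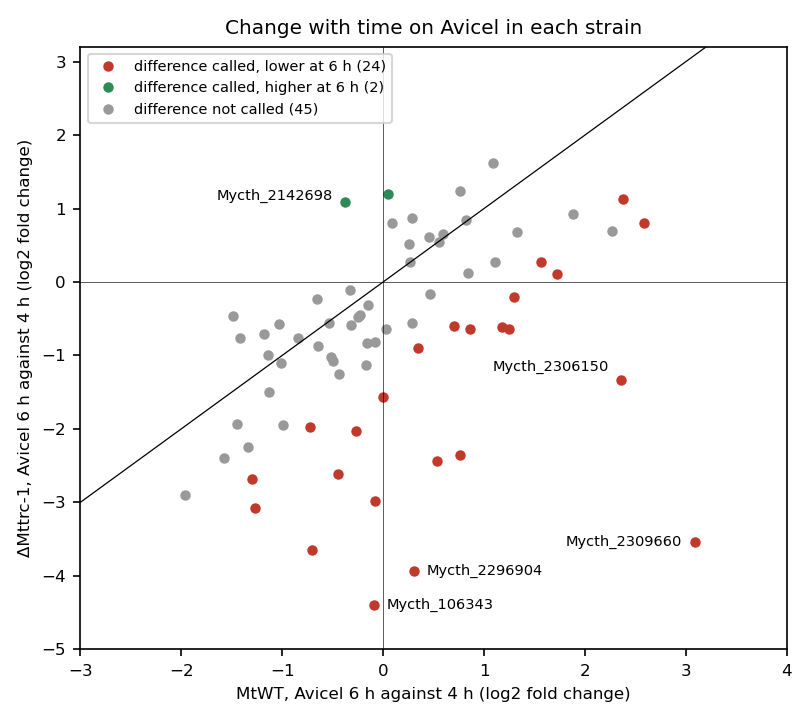
Log2 fold change from 4 h to 6 h on Avicel of the 71 genes in ΔMttrc-1 (vertical axis) and MtWT (horizontal axis), with the line of equal change. Colour marks the edgeR call of the difference between the strains, lower for 24 genes and higher for 2, and most points lie below the line, with Mycth_2309660 farthest from it.

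Some of the genes lie beside each other. In the gene order of the RefSeq assembly ASM22609v1, 14 of the 71 genes formed 6 runs with at most 1 other gene between neighbours, and 11 genes had another of the 71 directly beside them. How many runs other sets of 71 genes would form was not tested. Mycth_2299804, Mycth_2299806 and Mycth_73236 were 3 consecutive genes. On starch, Mycth_2299804 had 61.1, 63.6 and 66.4 CPM in ΔMttrc-1, against 10.1, 12 and 9.0 CPM in MtWT. Mycth_2299806 had 34.8, 33.9 and 35.2 CPM in ΔMttrc-1 on starch, against 5.91, 6.5 and 4.92 CPM in MtWT on starch. All 3 genes of this run were highest in ΔMttrc-1 on starch, and their starch differences were 2.63, 2.59 and 5.28 on the log2 scale. The genes on either side, Mycth_2087100 (a SAICAR synthetase of purine synthesis) and Mycth_2299819, differed by -0.13 and -0.47 on starch.

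A further run joined the calycin-like Mycth_106502, the hypothetical protein Mycth_114667 and the alcohol dehydrogenase Mycth_114666, with Mycth_78013 between the first and the second. The 3 chosen genes had mean levels from 0.0361 to 0.275 CPM in ΔMttrc-1 on Avicel at 6 h, against 4.95 to 7.80 CPM in MtWT, and all 3 were highest in MtWT at that time. Mycth_78013 differed by -1.56 and -1.27 on Avicel at 4 h and 6 h and by 0.07 on starch, so it shared the lower Avicel level and not the higher starch level. The remaining pairs were Mycth_86350 with Mycth_90354, Mycth_2127287 with Mycth_2305452, Mycth_2310225 with Mycth_2310226, and Mycth_2305568 with Mycth_2305570. Between the last pair lay the hypothetical protein Mycth_2061852, at -0.78, -0.56 and 1.64. Mycth_2127287 averaged 153 CPM in ΔMttrc-1 and 23.2 CPM in MtWT on starch, and its neighbour Mycth_2305452 averaged 6.35 CPM in ΔMttrc-1 and 1.04 CPM in MtWT on starch. Mycth_2310225 had a wide replicate spread, with 69.2, 88.3 and 189 CPM in MtWT on Avicel at 4 h.

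Most genes beside the 71 were not called in the same directions. Of 117 such direct neighbours tested, 14 (12%) were lower by these calls in ΔMttrc-1 on Avicel at 4 h, 21 (17.9%) lower at 6 h and 15 (12.8%) higher on starch. The shares among all genes tested were 7.42%, 12.9% and 4.12%. The 2 neighbours called in all 3 conditions were Mycth_2295298 (-3.18, -3.10 and 1.56) and Mycth_2300087 (-2.24, -1.06 and 1.92). Neither met the rule, and the condition they missed is not given here. No share of all genes was at hand for this joint count, so nothing is read from it. Without a strand setting for the counting, reads of overlapping neighbours could not be told apart.

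**Figure D5:**
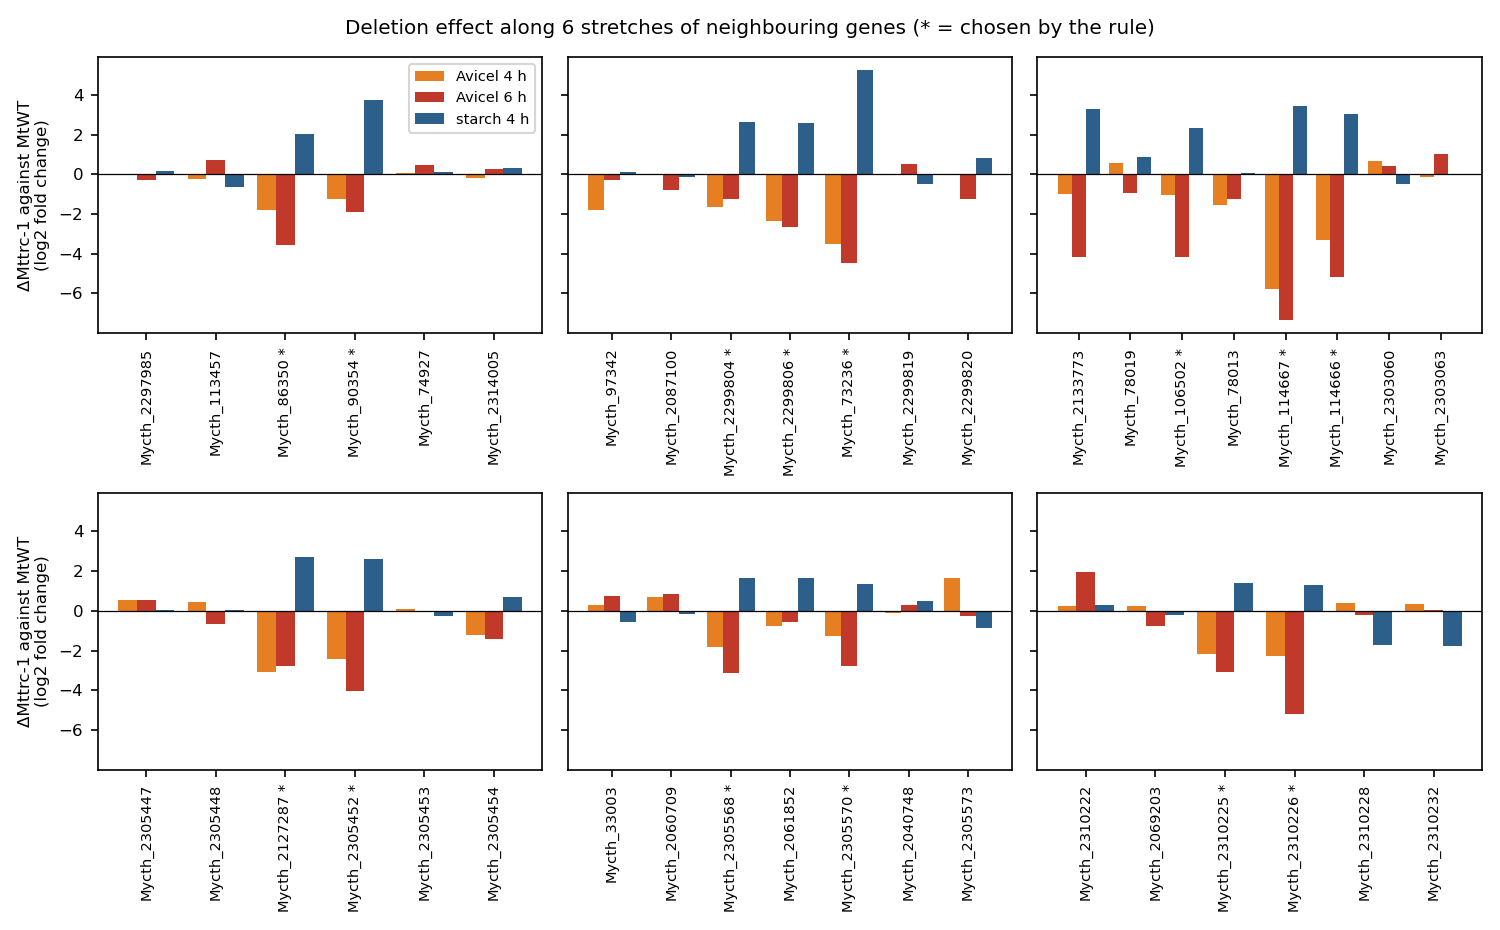
Log2 fold change of ΔMttrc-1 against MtWT for the genes of the 6 runs (asterisks) and the genes beside and between them, in gene order, on Avicel at 4 h and 6 h and on starch at 4 h. The bars of the chosen genes point down on Avicel and up on starch, up to 5.28 for Mycth_73236.

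The thresholds cut through a continuous range. With the other conditions met, 226 genes missed only the starch condition, 90 only that on Avicel at 4 h, 26 only that on Avicel at 6 h and 28 only the level. Just inside the starch threshold stood Mycth_2130517, Mycth_2310816 and Mycth_2311486, with ratios of ΔMttrc-1 to MtWT of 2.02, 2.09 and 2.10. Just outside were Mycth_2305379, Mycth_2305608 and Mycth_2304302, with 1.88, 1.85 and 1.83. On Avicel at 4 h the nearest ratios inside were 0.493 (Mycth_106502), 0.492 (Mycth_2306396) and 0.491 (Mycth_2295724). The nearest outside were 0.501 (Mycth_2300559), 0.502 (Mycth_65475) and 0.505 (Mycth_94171). At 6 h Mycth_101172, Mycth_2306772 and Mycth_2025813 lay inside at 0.50, 0.497 and 0.494, and Mycth_2297170, Mycth_112805 and Mycth_103818 outside at 0.506, 0.51 and 0.517. By level, Mycth_106502, Mycth_2106471 and Mycth_2308276 were inside with highest normalised means of 102, 102 and 106, and Mycth_2311172, Mycth_2308648 and Mycth_2301693 outside with 93.9, 89.4 and 88.2. Of the 71 genes, 52 met the rule with each of the 18 libraries left out in turn.

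Mycth_2130517 and Mycth_2295724 show that genes near a threshold can be abundant. Mycth_2130517 had 51.8, 53.1 and 53.5 CPM in ΔMttrc-1 on Avicel at 6 h, against 487, 568 and 478 CPM in MtWT, and 165, 163 and 165 CPM in ΔMttrc-1 on starch, against 74.2, 82.2 and 90.3 CPM in MtWT. It was a strong Avicel gene with a small starch difference. Mycth_2295724 had 242, 228 and 234 CPM in ΔMttrc-1 on Avicel at 4 h, against 453, 500 and 496 CPM in MtWT, and 587, 589 and 562 CPM in ΔMttrc-1 on starch, against 196, 188 and 172 CPM in MtWT. The 3 libraries of each group lay close together, and the groups did not overlap.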

How the data were processed

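Counts of 18 libraries (6 groups of 3) were analysed, grouped and numbered by sample title. Labels of MtWT replicate 3 carry the description of replicate 2 in each condition, which leaves their group unaffected. The authors aligned reads with TopHat2 2.0.8b and counted them with HTSeq 0.5.4p2 (versions from the processing notes), and deposited these gene-level read counts unscaled, while the study's methods name other versions. RPKM values were deposited too, which are those counts per gene length and library total, and they served for levels per length and for 1 alternative test. The build name and strand setting were not found in the labels, headers or methods, and are thus not given in the sources used here. RefSeq ASM22609v1 served only for names and gene order.

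Counts were fitted in R 4.3.3 with edgeR 4.0.16 (TMM, filterByExpr, robust quasi-likelihood test over the 6 groups without a replicate term). The filter left out 536 genes. Genes were called at a Benjamini-Hochberg adjusted p under 0.05 and an absolute log2 fold change over 1. Levels are CPM as mean ± SD of 3 libraries, and SEs are the log2 fold change over the square root of F and are approximate. Depth was 17250057 to 24387079 counts per library. Alternatives were DESeq2 1.42.0, DESeq2 size factors, library totals, limma 3.58.1 on log2(RPKM + 1), no filter, a test against a fold of 2, a replicate block and each library left out. The procedure was tested on simulated data. The genes and lists were chosen with earlier results of these data known. Of the 71 genes, 41 were named by rules on level, size of difference, change with time, neighbourhood, annotation and nearness to a threshold, and Mycth_103070, Mycth_112051 and Mycth_2063133 were added for their descriptions.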

Additional observations from a re-analysis of the deposited data

Results flagged for a closer look

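The deletion effect on Avicel differed between 6 h and 4 h, by the call of an edgeR contrast of 4 groups, for 24 of the 71 genes in the lower direction and for 2 in the higher direction, against 11.9% and 10.6% of all genes tested. Both ratios in this contrast were used to choose the genes, so these values are a description and not an independent test. Of the genes described, the difference on the log2 scale was -6.63 for Mycth_2309660, -4.31 for Mycth_106343, -4.24 for Mycth_2296904 and -3.69 for Mycth_2306150. The difference was 1.46 for Mycth_2142698 and 1.16 for Mycth_2307619. Mycth_2309660 and Mycth_2306150 had only 17 and 11 counts in ΔMttrc-1 on Avicel at 6 h, so counting error matters for them.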

How the results depend on the processing

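The rule gave 34 genes with a fold of 3 in place of 2, and 64 to 74 with a library left out. With an edgeR test against a fold of 2, the counts were 9 higher and 3 lower over time in MtWT, 1 higher over time in ΔMttrc-1, and 0 higher (1 at an unadjusted p under 0.05, and 2 by DESeq2 without that fold) and 14 lower for the difference of effects. For ΔMttrc-1 on starch against MtWT on Avicel that test gave 6 lower, and for ΔMttrc-1 on Avicel against MtWT on starch 7 higher. Library totals gave 8 lower over time in MtWT, 15 higher over time in ΔMttrc-1 (with the 5 called by TMM among them), 4 higher for the difference of effects, 4 lower for the first crossed comparison, and 7 higher and 27 lower for the second. The limma test on RPKM gave 3 lower in MtWT, 8 higher (3 of them among the 5 called by edgeR) and 13 lower in ΔMttrc-1, 1 higher for the difference (a gene other than the 2 described), 4 lower for the first and 5 higher for the second crossed comparison. The cause of these shifts was not tested. With a library left out, the counts ranged from 3 to 5 (higher over time in ΔMttrc-1) and from 1 to 3 (higher difference). Samples of different groups were matched by replicate number only. The correlations of the deviations of libraries with the same number ran from -0.345 to 0.18, with a median of 0.0021. Such values cannot show whether libraries of the same number shared their handling, which was not tested. With a replicate block, 3 genes in place of 2 had a higher difference. For the 41 named genes, 8628 of 8875 alternative values kept direction and call, 247 lost the call and 0 changed direction. Depth limits genes with under 10 CPM most, of which the lowest had 1 count in a group.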
